A study of Mus musculus with 9 samples.

Results

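Neurofilaments and axonal microtubule proteins are followed here through 10 genes, Nefl, Nefm, Nefh, Ina, Prph, Map2, Mapt, Map1b, Tubb3 and Stmn2, taken by gene name from a table of 34745 genes. Each had 1 row in every library and all 10 passed the filter on low counts, so all 10 are among the 17901 genes tested. The libraries are RNA-seq of whole spinal cord from wild type C57BL/6 mice aged 7-9 weeks, taken on day 7. They form 3 groups of 3 libraries: injured cord with hyperbaric oxygen treatment (HBO), spinal cord injury without it (SCI), and sham animals, whose own labels read control and no injury. The labels say nothing of oxygen dose, lesion level, distance of the tissue from the lesion or which animal each library came from. P-values therefore measure only the spread between these samples, which may be technical.

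Neurofilaments are the intermediate filaments of neurons and fill large axons, where they set axon calibre. They are built from light, medium and heavy chains (Nefl, Nefm, Nefh) with alpha-internexin (Ina) in central neurons and peripherin (Prph) in neurons that send axons to the periphery, such as motor and sensory neurons. Microtubules are the tracks of axonal transport. Tubb3 is the neuronal beta-tubulin isotype, Mapt (tau) and Map1b bind microtubules in axons, Map2 does so mainly in cell bodies and dendrites, and Stmn2 (stathmin-2) binds tubulin and is needed for axon growth and maintenance. The name axonal is thus not strict for Map2.

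The upstream sequences of Ina and Prph are given because, of the filament genes, Ina had the largest fall and Prph was the one that did not pass the test. They are the 100 bases before the RefSeq start on GRCm38.p6, 5′ to 3′, with capitals on any TATAAA or GGGCGG read on either strand.
Ina, chr19:47014581-47014680, plus strand: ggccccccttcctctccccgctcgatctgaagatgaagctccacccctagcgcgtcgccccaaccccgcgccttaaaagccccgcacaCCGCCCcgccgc
Prph, chr15:99055074-99055173, plus strand: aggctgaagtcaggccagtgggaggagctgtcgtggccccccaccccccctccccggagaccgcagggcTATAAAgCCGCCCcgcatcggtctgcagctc
Prph had TATAAA starting 31 bases before its start, and Ina had none in this window. Of 32851 promoters in the same table, 5.56% hold TATAAA and 24.7% hold GGGCGG within 100 bases. Entries were found for 5 of the 10 genes (Ina, Prph, Map2, Map1b and Tubb3). A match is a description of letters and not evidence of a bound site.

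Library totals were 11159587 to 15715484 counts. The 10 genes took 0.483% to 0.873% of all counts in HBO, 0.478% to 0.723% in SCI and 0.932% to 1.185% in sham. The lowest count of any of them in any library was 273, so counting error was small beside the spread between libraries. Defining neuronal, oligodendrocyte and motor neuron genes all had counts, as the tissue label requires. Several libraries stood apart: the skeletal muscle list summed to 724 CPM (counts scaled to a common library size) in SCI replicate 1, 103 in SCI replicate 2 and 113 in HBO replicate 1, against 9.25 to 23.7 in sham. The erythroid list summed to 1315 CPM in SCI replicate 1, the lowest SCI library for 8 of the 10 genes, against 168 to 420.4 CPM in the other 8 libraries. The neutrophil list summed to 356 CPM in HBO replicate 3, against 36.3 and 81.5 in the other HBO libraries.

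Nearly the whole set was lower after injury. In SCI against sham 9 of 10 genes fell and none rose, with Prph the gene that did not pass at an adjusted p under 0.05. Of all genes tested 36.6% passed, 16.6% falling and 20% rising. In bulk tissue fewer neurons, less RNA per neuron and more RNA from other cells cannot be told apart. The median log2 fold change of the 10 was -0.89, against 0.00 over all genes. For each of the 10, all 3 SCI libraries lay below all 3 sham libraries, a pattern shown by 26.3% of all genes. The call of 9 depends on single libraries: it was 4 without sham replicate 1, sham replicate 3 or SCI replicate 2, and 3 without SCI replicate 1. Nefl, Ina and Stmn2 passed with each of the 6 libraries left out in turn, and no log2 fold change changed sign.

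**Figure D1:**
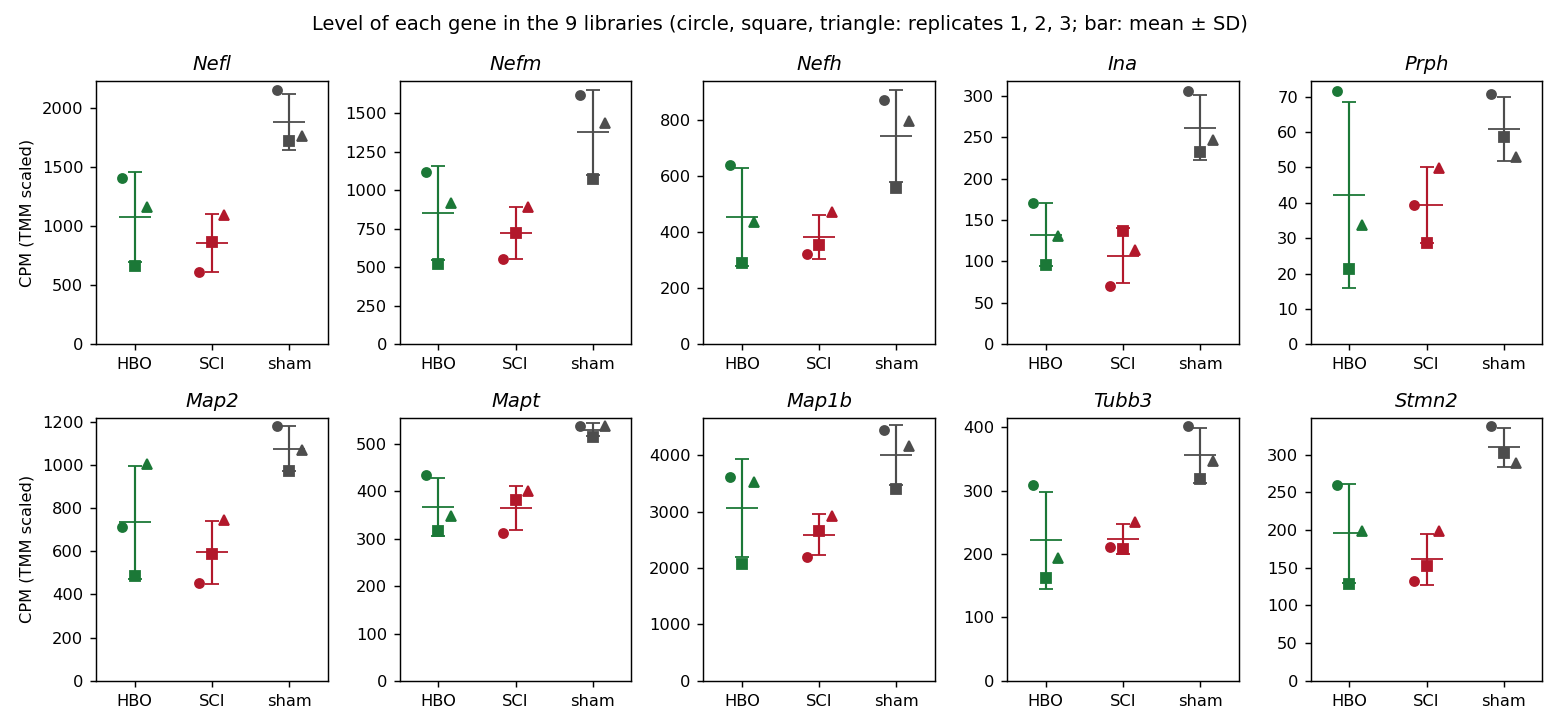
CPM of each of the 10 genes in HBO, SCI and sham (x axis), with a linear y axis from 0, 1 symbol per library and a bar for mean ± SD (n = 3 per group). All SCI points lie below all sham points in every panel, while HBO points overlap sham in 5 of the 10 panels.

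Among the chains of the neurofilament core, the light chain Nefl fell most. It was at 1407, 664 and 1158 CPM in HBO, 612, 861 and 1095 CPM in SCI, and 2149, 1721 and 1759 CPM in sham. Neither injured group reached the sham range. Its log2 fold change was -1.13 ± 0.28 (SE, adjusted p = 0.0102) in SCI against sham, a 54.4% lower level, and -0.80 ± 0.28 (adjusted p = 0.0492) in HBO against sham. The HBO call held without HBO replicate 1 (adjusted p = 0.0225) and was lost without any of the other 5 libraries (adjusted p up to 0.148).

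The medium chain Nefm was at 1119, 521 and 917 CPM in HBO, 552, 719 and 893 CPM in SCI, and 1616, 1072 and 1434 CPM in sham. The heavy chain Nefh, which carries the long phosphorylated tail, was at 639, 289 and 435 CPM in HBO, 320.4, 354 and 470.1 CPM in SCI, and 873, 557 and 797 CPM in sham. For both, SCI stayed below sham, and HBO replicate 1 exceeded sham replicate 2. In SCI against sham Nefm changed by -0.93 ± 0.28 (adjusted p = 0.0249) and Nefh by -0.96 ± 0.28 (adjusted p = 0.0212). Both calls were lost without any 1 of sham replicate 1, sham replicate 3, SCI replicate 1 or SCI replicate 2. In HBO against sham the values were -0.69 ± 0.28 (adjusted p = 0.0840) and -0.71 ± 0.28 (adjusted p = 0.0755). HBO replicate 1 decides these: without it Nefm was at -0.93 (adjusted p = 0.0346) and Nefh at -1.04 (adjusted p = 0.0142). Neither passed with any other library left out. Values then reached -0.43 for Nefm (adjusted p up to 0.237) and -0.47 for Nefh (adjusted p up to 0.219).

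Ina had the largest fall of the set. It was at 171, 95.2 and 131 CPM in HBO, 70.7, 137 and 114 CPM in SCI, and 306, 232 and 247 CPM in sham. The injured and sham ranges did not overlap. Its log2 fold change was -1.29 ± 0.26 (adjusted p = 0.00406) in SCI against sham and -0.98 ± 0.26 (adjusted p = 0.0162) in HBO against sham, so SCI libraries were 2.44 times lower and HBO libraries 1.98 times lower. The HBO call was lost without sham replicate 1 (adjusted p = 0.0647), HBO replicate 2 (adjusted p = 0.0597) or HBO replicate 3 (adjusted p = 0.0501).

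Prph was the least abundant of the set and, in HBO, the most scattered. It was at 71.7, 21.1 and 33.7 CPM in HBO, 39.4, 28.7 and 50.0 CPM in SCI, and 70.7, 58.7 and 53.1 CPM in sham. HBO replicate 1 was the highest of the 9 libraries and HBO replicate 2 the lowest. The coefficient of variation in HBO was 62.4%, against 16.7% to 38.7% for the other 9 genes in that group; in SCI it was 27.0% and in sham 14.8%, within the range of the other genes. The log2 fold change was -0.63 ± 0.37 (adjusted p = 0.209) in SCI against sham and -0.53 ± 0.37 (adjusted p = 0.307) in HBO against sham, neither past the threshold. Without HBO replicate 1 the second value was -1.15 (adjusted p = 0.0107), and with only SCI and sham in the fit the first was -0.63 (adjusted p = 0.0387). The second did not pass with any other library left out, with values up to -0.21 (adjusted p up to 0.6805). The first passed with none of the 6 libraries left out in turn (adjusted p = 0.152 to 0.448).

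The summed motor neuron list, 8 genes that include the choline transporter Slc5a7, ranked the HBO libraries as Prph did, but not the SCI libraries. It was at 184, 70.5 and 132 CPM in HBO replicates 1 to 3, 75.9, 78.3 and 117 CPM in SCI, and 192 to 253 CPM in sham. The sensory ganglion list of 12 genes summed to 38.5, 26.0 and 29.8 CPM in HBO, the same order. It summed to 20.9 to 57.5 CPM in SCI and 50.6 to 76.4 CPM in sham. In that list 5 genes (Scn10a, Scn11a, Trpv1, Prdm12 and Mrgprd) were too low to test. The HBO order is not particular to these cell types: 14 general neuronal genes summed to 5154, 2951 and 3975 CPM there. The part of either cell type in the Prph values was not tested.

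The microtubule genes fell by less than the filament genes in the median, with a median log2 fold change of -0.67 for the 5 microtubule genes and -0.96 for the 5 filament genes in SCI against sham. The difference between these medians was not tested. Of the 5, Stmn2 had the lowest value in SCI against sham, and Tubb3 in HBO against sham (-0.68 ± 0.21). Stmn2 was at 260, 129 and 199 CPM in HBO, 132, 152 and 199 CPM in SCI, and 338, 302 and 289 CPM in sham. Both injured groups lay below sham for Stmn2. Its log2 fold change was -0.94 ± 0.23 (adjusted p = 0.0101) in SCI against sham and -0.66 ± 0.23 (adjusted p = 0.0510) in HBO against sham. That second value lies at the threshold: it passed with DESeq2 (adjusted p = 0.0207), with DESeq2 size factors in edgeR (adjusted p = 0.0454), with no filter on low counts (adjusted p = 0.0432) and with limma on log2(FPKM + 1) (adjusted p = 0.0395). It passed without HBO replicate 1 (adjusted p = 0.0118), and did not pass without any of the other 5 libraries (adjusted p up to 0.145) or with only HBO and sham in the fit (adjusted p = 0.0558).

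Mapt had the lowest spread of the set in HBO and in sham, while Tubb3 had it in SCI. Tau was at 435, 316 and 348 CPM in HBO, 313, 382 and 399.9 CPM in SCI, and 537, 513 and 537 CPM in sham. The coefficient of variation was 16.7% in HBO, 12.6% in SCI (10.8% for Tubb3) and 2.61% in sham, and the injured and sham ranges did not overlap. The log2 fold change was -0.54 ± 0.14 (adjusted p = 0.0149) in SCI against sham and -0.53 ± 0.14 (adjusted p = 0.0188) in HBO against sham. The HBO call was lost without sham replicate 1, HBO replicate 2 or HBO replicate 3 (adjusted p = 0.0573 to 0.0666), and the SCI call without SCI replicate 1 (adjusted p = 0.0636).

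Tubb3 was at 309, 163 and 194 CPM in HBO, 211, 208 and 251 CPM in SCI, and 402, 318 and 347 CPM in sham. Injured and sham ranges did not overlap. It changed by -0.67 ± 0.21 in SCI (adjusted p = 0.0310) and by -0.68 ± 0.21 in HBO (adjusted p = 0.0337), each against sham. The SCI call was lost without sham replicate 1 or 3 or SCI replicate 1 or 2 (adjusted p up to 0.106). The HBO call was lost with 5 of the 6 libraries left out in turn, the exception being HBO replicate 1, and with only HBO and sham in the fit (adjusted p = 0.0509).

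Map2 was at 711, 485 and 1006 CPM in HBO, 451, 589 and 744 CPM in SCI, and 1181, 973 and 1068 CPM in sham. HBO replicate 3 lay within the sham range, and it was the highest HBO library for no other of the 10 genes. Map2 changed by -0.85 ± 0.25 (adjusted p = 0.0245) in SCI against sham and by -0.55 ± 0.25 (adjusted p = 0.125) in HBO against sham. The SCI value kept its call without sham replicate 2 or SCI replicate 3 and lost it without any other library (adjusted p up to 0.0946). The HBO value was -0.85 (adjusted p = 0.0326) without HBO replicate 3. It did not pass with any other library left out, with values up to -0.32 (adjusted p up to 0.338).

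Map1b, a protein of growing axons, was at 3608, 2069 and 3533 CPM in HBO, 2198, 2649 and 2928 CPM in SCI, and 4439.6, 3403 and 4165 CPM in sham. HBO replicates 1 and 3 exceeded sham replicate 2. It changed by -0.63 ± 0.22 (adjusted p = 0.0495) in SCI against sham, just past the threshold, and lost the call with each of the 6 libraries left out (adjusted p = 0.0575 to 0.165). In HBO against sham it was at -0.38 ± 0.22 (adjusted p = 0.220).

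In HBO against sham, 4 of the 10 genes fell (Nefl, Ina, Mapt and Tubb3) and none rose. Of all genes tested 30.9% passed, 13.5% falling and 17.4% rising. The median log2 fold change was -0.67, against a median near 0 over all genes. Groups did not overlap for 5 of the 10 genes, all lower, as for 23% of all genes. The count of 4 depends on single libraries. It was 0 without sham replicate 1 or HBO replicate 2, 1 without HBO replicate 3, 2 without sham replicate 2 or 3, and 8 without HBO replicate 1. Both injured groups are set against the same sham libraries, so these counts are not independent of the 9 in SCI.

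**Figure D2:**
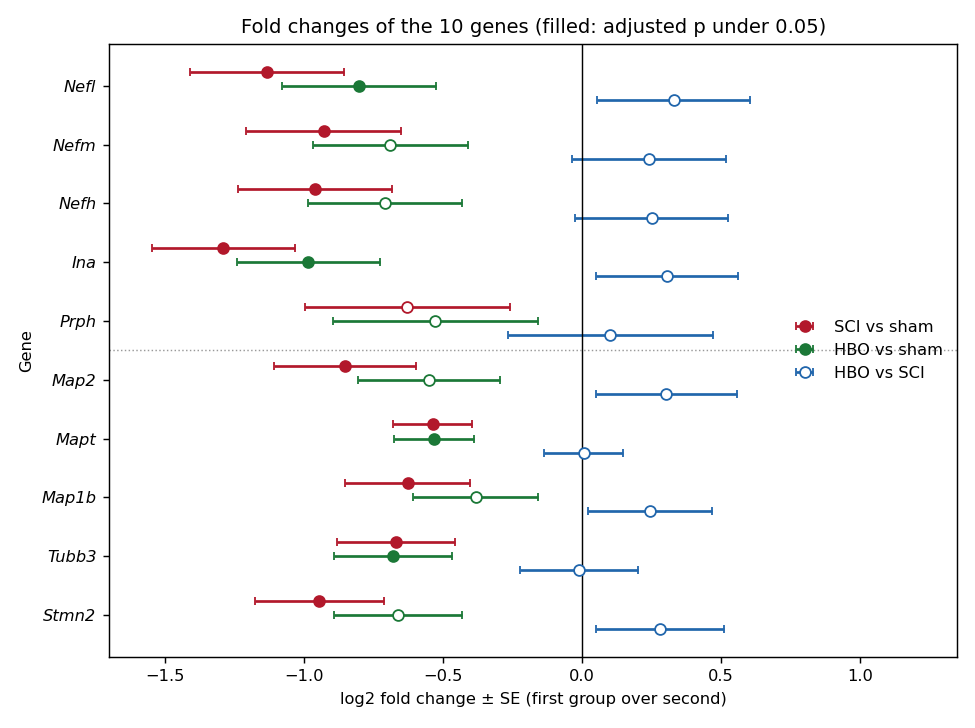
Log2 fold change ± SE (x axis, first group over second) of each gene (y axis) for SCI vs sham, HBO vs sham and HBO vs SCI from edgeR, with filled symbols at an adjusted p under 0.05. All values against sham lie below 0, and the HBO vs SCI values lie between -0.01 and 0.33 with no filled symbol.

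Hyperbaric oxygen against untreated injury gave no call among the 10 genes. With edgeR 0 of the 10 passed, as did 0% of all genes. At an unadjusted p under 0.05 none of the 10 passed either, against 4.18% of all genes. DESeq2 called none of the 10 and 22 genes in all. The log2 fold change was above 0 in 9 of 10, with Tubb3 at -0.01 ± 0.21, and the highest were Nefl at 0.33 ± 0.27, Ina at 0.31 ± 0.26 and Map2 at 0.30 ± 0.25 (adjusted p = 0.959 each). Mapt was at 0.01 ± 0.14 (adjusted p = 0.996). The median of the 10 was 0.25, against a median near 0 over all genes. The signs depend on single libraries: with 1 left out, Nefm, Nefh, Prph and Mapt could fall below 0 (Prph to -0.52), and Tubb3 could rise above it. The lean is not particular to the set, as all 14 neuronal genes outside it, described below, were above 0 too (median 0.11). HBO and SCI libraries overlapped for all 10, while 4.07% of all genes had HBO wholly below SCI and 3.96% had it wholly above. The value for Nefl is little more than its SE, and a p that misses the threshold does not show equal levels.

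**Figure D3:**
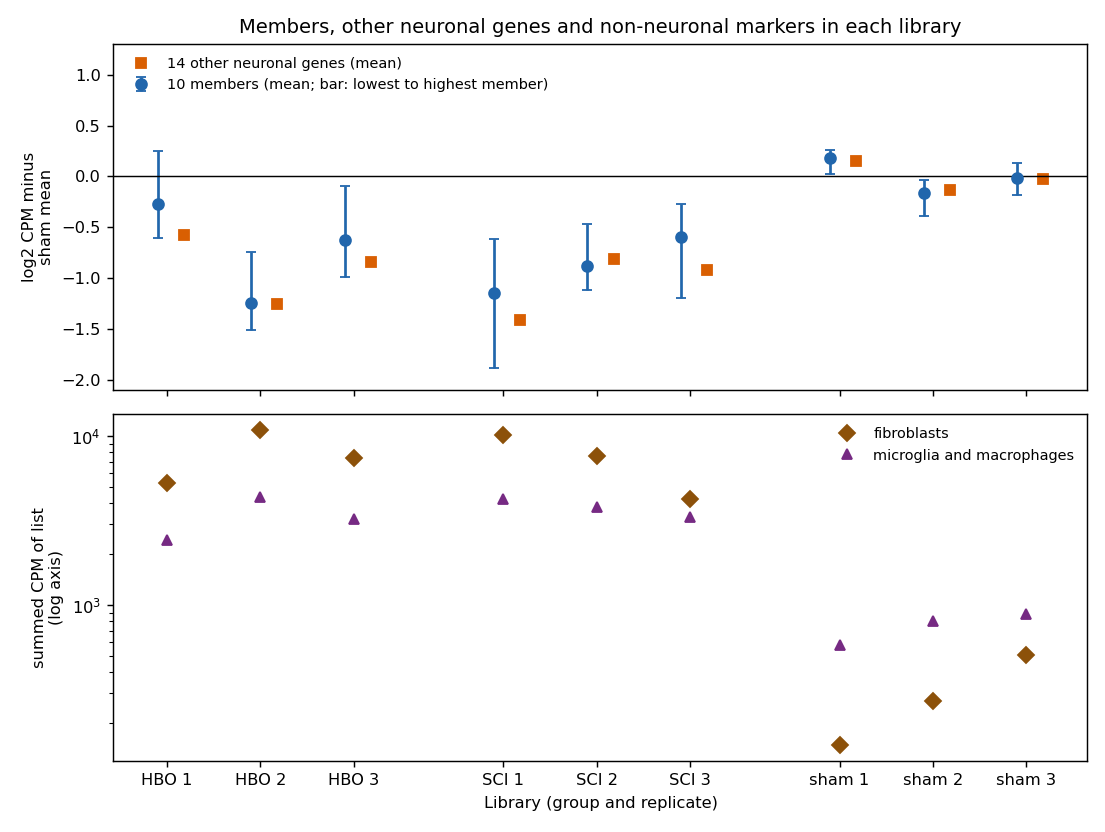
Upper panel: mean log2 CPM relative to the sham mean (y axis) of the 10 genes and of 14 other neuronal genes in each library (x axis), with bars from the lowest to the highest of the 10. Lower panel: summed CPM (log axis) of fibroblast and of microglia and macrophage genes. HBO replicate 2 and SCI replicate 1 are lowest of their groups above and highest below.

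Within each group the 10 genes ranked the libraries alike. HBO replicate 2 was the lowest HBO library for 10 of 10 genes, and HBO replicate 1 the highest for 9. In SCI, replicate 1 was lowest for 8 and replicate 3 highest for 9. In sham, replicate 2 was lowest for 8 and replicate 1 highest for 9. Relative to the sham mean, the 10 genes averaged -0.27, -1.24 and -0.62 log2 CPM in HBO replicates 1 to 3, -1.14, -0.88 and -0.60 in SCI, and 0.18, -0.16 and -0.02 in sham. Thus the 3 HBO libraries spanned a wider range than the 3 SCI libraries.

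Fibroblast and macrophage markers ranked the injured libraries in the opposite order within each injured group, but not the sham libraries. The 6 fibroblast genes, among them the collagen Col1a1, summed to 5253, 10820 and 7348 CPM in HBO, 10050, 7578 and 4205 CPM in SCI, and 148, 270 and 503 CPM in sham. The 10 microglia and macrophage genes summed to 2428, 4367 and 3237 CPM in HBO, 4224, 3773 and 3324 CPM in SCI, and 575, 798 and 881 CPM in sham. All genes of both lists had counts. The libraries lowest in the 10 neuronal genes, HBO replicate 2 and SCI replicate 1, were the highest of their group in both lists. Other lists followed this order in part or not at all. The 6 endothelial genes were highest in the same libraries, at 375, 433 and 404 CPM in HBO and 503, 400 and 407 CPM in SCI. The erythroid and skeletal muscle lists followed the order in SCI only, and the Schwann cell list in HBO only. The astrocyte and oligodendrocyte lists followed it in neither group. The 8 astrocyte genes summed to 7080.0, 6124 and 7396 CPM in HBO, 6459, 5869 and 7342 CPM in SCI, and 7413, 8638 and 7363 CPM in sham. The 10 oligodendrocyte genes were lowest in replicate 2 in HBO and in SCI, and the 10 Schwann cell genes were highest in replicate 2 of both (1683 CPM in HBO, 1804 CPM in SCI). The part of these cells in the result was not tested.

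Other neuronal genes fell too. Of 14 neuronal genes outside the set, 14 fell in SCI (median log2 fold change -1.07) and 14 in HBO (median -0.89), each against sham. Of all genes tested 16.6% and 13.5% fell in these comparisons. The list was chosen with earlier results of these data known, so its counts are a description and not independent support. They include Syt1, the calcium sensor of synaptic release, at 69.0 ± 20.4 CPM in SCI and 173 ± 5.16 CPM in sham (SD, n = 3 each), and Elavl4, a neuronal RNA-binding protein, at 30.2 ± 4.36 and 70.9 ± 3.28 CPM in the same groups. The 10 genes were therefore also fitted with each library scaled on these 14 genes in place of all genes. This scaling moved the median log2 fold change of all genes by 1.06 in SCI against sham and 0.91 in HBO against sham, so values are read as changes relative to other neuronal genes.

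**Figure D4:**
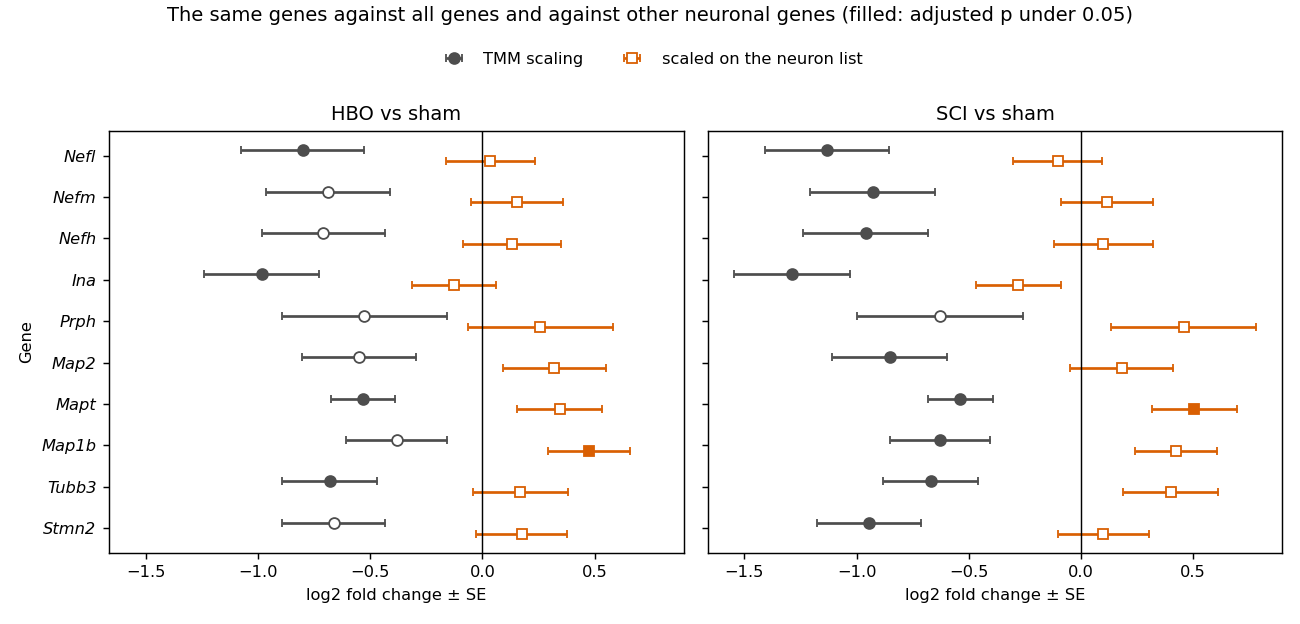
Log2 fold change ± SE (x axis) of each gene (y axis) in HBO vs sham and SCI vs sham, with libraries scaled over all genes (TMM, circles) and on 14 other neuronal genes (squares); filled symbols have an adjusted p under 0.05. The squares lie around 0 for Nefl, Nefm, Nefh and Stmn2, and the filled squares are Mapt in SCI vs sham and Map1b in HBO vs sham.

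Relative to other neuronal genes, none of the 10 was lower by the test in either comparison with sham, as for nearly all genes (0.095% called lower in SCI and 0.0726% in HBO). The neurofilament chains lay near 0 in SCI against sham: Nefl at -0.10 ± 0.20, Nefm at 0.11 ± 0.21 and Nefh at 0.10 ± 0.22. Ina was the lowest of the set at -0.28 ± 0.19 (adjusted p = 0.195). Mapt was higher, at 0.51 ± 0.19 (adjusted p = 0.0285), with Map1b at 0.42 ± 0.18 (adjusted p = 0.0509), Tubb3 at 0.40 ± 0.21 (adjusted p = 0.101) and Prph at 0.46 ± 0.32 (adjusted p = 0.212). In HBO against sham Map1b was higher, at 0.48 ± 0.18 (adjusted p = 0.0375), and Mapt was at 0.35 ± 0.19 (adjusted p = 0.122).

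These 2 calls, 1 per comparison, stand among 74.6% of all genes called higher under this scaling in SCI against sham and 64.5% in HBO against sham. Neither gene rose by the scaling over all genes, where Mapt was at -0.54 in SCI against a median of -1.07 for the 14 neuronal genes, and Map1b at -0.38 in HBO against -0.89. Within the 14, Elavl3 was at -0.46 in SCI, so Mapt fell less than their median but not less than each of them. The call of Mapt was lost without sham replicate 1, 2 or 3 or SCI replicate 1 or 3 (adjusted p up to 0.118). Without SCI replicate 2 Map1b (adjusted p = 0.0265) and Tubb3 (adjusted p = 0.0342) passed beside Mapt. The call of Map1b was lost without sham replicate 1, 2 or 3 or HBO replicate 3 (adjusted p up to 0.120). In HBO against SCI this scaling called 0% of all genes and none of the 10, and Nefl was at 0.14 ± 0.20.

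Ratios within a library do not depend on scaling. The ratio of Nefm to Nefl counts was 0.795, 0.785 and 0.792 in HBO, 0.902, 0.835 and 0.815 in SCI, and 0.752, 0.623 and 0.815 in sham. Nefh to Nefl was 0.454, 0.435 and 0.376 in HBO, 0.523, 0.411 and 0.429 in SCI, and 0.406, 0.324 and 0.453 in sham. SCI replicate 1 had the highest value of both ratios, and the groups overlapped. The 6 injured libraries together differed from the 3 sham libraries by 0.18 (log2) for Nefm to Nefl (exact two-sided permutation p = 0.119, adjusted over 7 ratios p = 0.556).

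The other 6 ratios had exact permutation p of 0.286 to 0.976. Ina to Nefl differed by -0.16, Prph to Nefl by 0.33, Map2 to Mapt by -0.20, Map1b to Mapt by 0.02 and Stmn2 to Tubb3 by -0.14 (log2, injured minus sham). With 6 against 3 libraries the smallest p possible is 0.0238, before adjustment over the 7 ratios. After that adjustment a ratio that shifted alone could not have passed the threshold. The test therefore cannot decide whether any single ratio changed.

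Counts of Nefl and Nefm are not fully separate. On GRCm38 Nefl lies on chromosome 14 from 68083863 to 68089095 on the plus strand. Nefm spans 68082590 to 68124846 on the minus strand, a span that includes Nefl. In the GENCODE M21 annotation 32.8% of the exon bases of Nefl and 19.2% of those of Nefm overlap the other gene, and 14.1% of those of Ina overlap Nt5c2 on the opposite strand. Whether counting used the strand is not stated, so these levels and the Nefm to Nefl ratio are uncertain by the reads in the overlaps.

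Levels between genes can be compared only per length. By the deposited FPKM, the sham order was Nefl (557 ± 65.2), Map1b (339 ± 41.7), Nefm (238 ± 45.5), Tubb3 (191 ± 21.0), Nefh (186 ± 39.4), Ina (81.1 ± 11.3), Mapt (49.4 ± 0.736), Stmn2 (49.1 ± 3.80), Map2 (33.3 ± 2.86) and Prph (28.3 ± 4.02). The ranges of mean ± SD overlapped for Nefm, Tubb3 and Nefh, for Mapt and Stmn2, and for Map2 and Prph. This SD is a spread between libraries and does not measure differences between genes within a library. In each sham library Nefm lay above Tubb3 and Nefh, and Map2 above Prph. Tubb3 and Nefh changed order between sham libraries, as did Mapt and Stmn2. In HBO the order of the means was the same as in sham. In SCI Mapt (33.9 ± 4.89) stood just above Ina (33.1 ± 10.8), within the spread. Nefl led in each group, at 316 ± 109 FPKM in HBO and 254 ± 75.6 FPKM in SCI.

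The order depends on the gene length the authors used. That length, implied by count and FPKM, was 5.18 times the M21 transcript with the longest coding sequence for Map2, 4.79 times for Mapt, 3.06 times for Stmn2 and 1.73 times for Nefm, but 1.00 times for Nefl, Nefh, Ina and Tubb3. Counted per kilobase of that transcript, Mapt moved to the fourth place in sham, at 235 ± 6.14 CPM per kilobase, and Map2 to the seventh, at 172 ± 16.7 CPM per kilobase.

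The wider cytoskeleton was followed through lists of other genes. Their counts stand beside the shares of all genes tested: 16.6% fell and 20% rose in SCI against sham, and 13.5% fell and 17.4% rose in HBO against sham. Of 16 genes of axonal transport 10 fell and none rose in SCI against sham (median log2 fold change -0.56), and 8 fell in HBO against sham (-0.49). Kif5c, a neuronal kinesin, was at 454 ± 96.3 CPM in SCI and 908 ± 80.5 CPM in sham. Dync1i1, a dynein chain, changed by -1.09 ± 0.23 (adjusted p = 0.00513) and Klc2, a kinesin light chain, by -1.07 ± 0.24 (adjusted p = 0.00736).

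Of 14 genes of the axonal membrane skeleton 7 fell and 1 rose in SCI against sham, and 5 fell in HBO against sham. Cntnap1, an axonal protein of the paranode, was at 138 ± 24.3 CPM in SCI and 276 ± 34.0 CPM in sham (adjusted p = 0.00217), and the spectrin of initial segments and nodes, Sptbn4, changed by -0.98 ± 0.20 (adjusted p = 0.00405). Among 12 kinases and regulators of neurofilaments and tau, 8 fell in SCI and 7 in HBO, each against sham, and none rose. They include Cdk5r1 (-0.90 ± 0.18 in SCI, adjusted p = 0.00385) and Cdk5r2 (-1.02 ± 0.20, adjusted p = 0.00385), the activators of the kinase Cdk5, and the microtubule-affinity kinase Mark1 (-0.85 ± 0.16, adjusted p = 0.00278).

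Other microtubule-binding proteins were mixed. Of 22, 10 fell and 2 rose in SCI against sham, and 5 fell and 3 rose in HBO against sham. Dcx, a microtubule protein of young neurons, changed by -1.19 ± 0.23 (adjusted p = 0.00374) and Map7d2 by -1.03 ± 0.21 (adjusted p = 0.00478) in SCI. Dpysl3, a collapsin response mediator, was higher in SCI at 260.2 ± 40.3 CPM, against 155 ± 7.90 CPM in sham.

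Other tubulins did not fall as a group. Of 12, 3 rose and 2 fell in SCI against sham (median -0.13), and 1 rose and 2 fell in HBO against sham (median -0.18). The SCI counts are near the shares of all genes, 20% rising and 16.6% falling. Tubb6, a beta-tubulin found in many cell types, had 23.2 ± 4.81 CPM in HBO, 33.0 ± 12.9 CPM in SCI and 5.53 ± 0.533 CPM in sham, with a log2 fold change of 2.58 ± 0.30 (adjusted p = 0.000516) in SCI against sham. Tubb2b changed by 0.66 ± 0.18 (adjusted p = 0.0164) in SCI against sham, where Tubb3 was at -0.67 ± 0.21. In HBO against sham Tubb2b was at 0.27 ± 0.18 (adjusted p = 0.291). The 2 that fell in SCI were Tuba8 (-0.73 ± 0.24, adjusted p = 0.0374) and Tubb4b (-0.43 ± 0.14, adjusted p = 0.0377).

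Most intermediate filament genes outside the neurofilament family rose. Of 9 such genes 7 could be tested (Krt8 and Krt18 were too low), and 6 rose in SCI and 6 in HBO, each against sham (median log2 fold changes 1.11 and 0.87). These 6 are Gfap of astrocytes, Vim, Nes, the muscle filament Des, and Lmna and Lmnb1, nuclear lamins that neurons carry too. Des was uneven, at 10.7 ± 4.52 CPM in HBO, 33.3 ± 34.7 CPM in SCI and 2.57 ± 0.168 CPM in sham. It is also in the skeletal muscle list, which summed to 724 CPM in SCI replicate 1. Synm was at 0.19 ± 0.14 in SCI (adjusted p = 0.325). Vimentin (Vim) was at 496 ± 55.3 CPM in HBO, 704 ± 180 CPM in SCI and 196 ± 61.5 CPM in sham. Nestin (Nes), of reactive and progenitor cells, was at 156 ± 5.12 CPM in HBO, 206 ± 31.6 CPM in SCI and 59.6 ± 17.7 CPM in sham. Their rise stands beside the high fibroblast and macrophage sums, whose part in it was not tested.

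**Figure D5:**
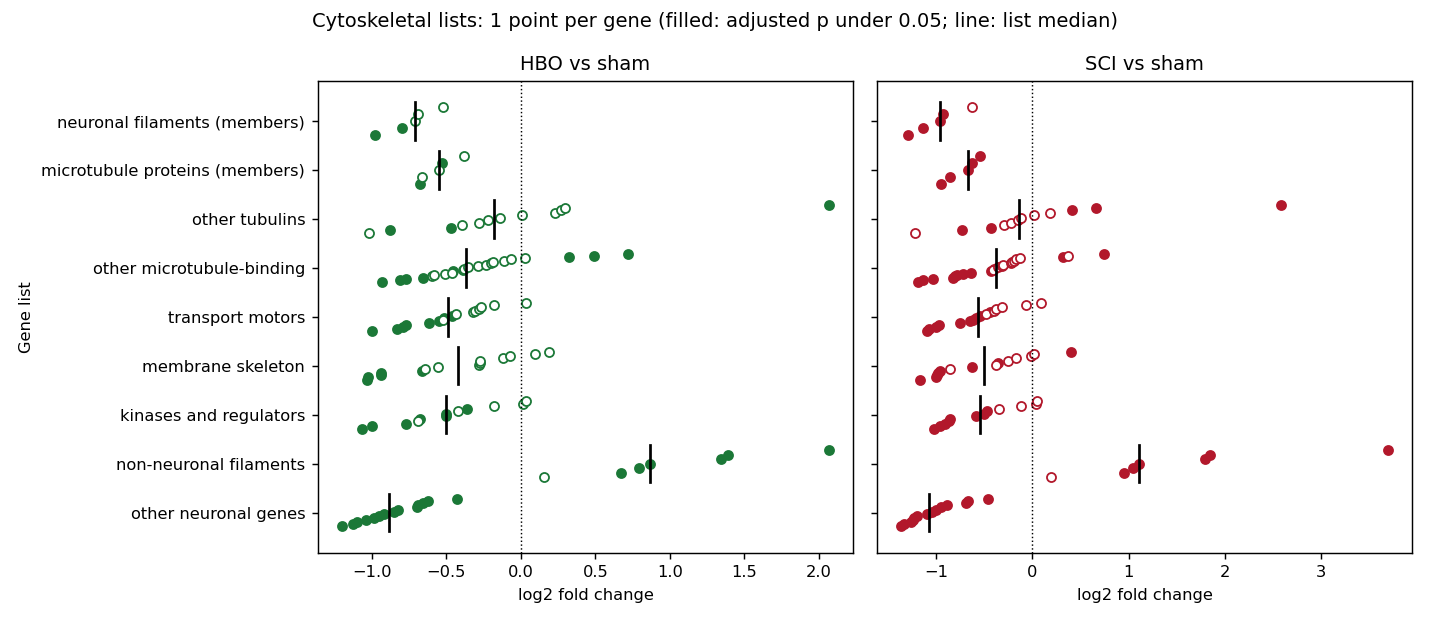
Log2 fold change (x axis) of every tested gene of 9 lists (y axis) in HBO vs sham and SCI vs sham, 1 point per gene, filled at an adjusted p under 0.05, with a line at the list median. Medians lie below 0 for all lists but the non-neuronal filaments, which include 2 lamins, and Tubb6 is the rightmost of the other tubulins.

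The genes whose profile over the 9 libraries lay nearest to the mean of the 10 were Pcyt1b, Rab6b, Dffa, Slc24a2 and Akap6, with a root mean square difference of 0.0742 to 0.0867 log2 CPM among 13415 genes. Nefm and Nefh were nearest to each other of all genes (0.0911). The nearest gene to Nefl was Rimkla (0.0709), to Ina the glycine receptor subunit Glra1 (0.0644), to Mapt Rab11fip4 (0.0535) and to Stmn2 the tau tubulin kinase Ttbk2 (0.0730). Prph had the farthest nearest gene, the potassium channel Kcnj14, at 0.133. Map2, Map1b and Tubb3 were nearest to Sgtb (0.0789), Map3k13 (0.102) and Atp5g1 (0.0896). These genes share libraries and scaling with the 10, and the likeness is a description.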

How the data were processed

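RNA-seq counts of 9 mouse spinal cord libraries were used. The submitters' processing notes name HISAT2 and the build GRCm38 (mm10). Which tool counted reads, with what strand setting and annotation release, was not stated. From the deposited tables, the authors' raw counts per gene were tested, and the authors' FPKM served for levels between genes and 1 alternative.

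Counts were filtered with filterByExpr, scaled by TMM and fitted in edgeR 4.0.16 (R 4.3.3, limma 3.58.1) with glmQLFit, 1 mean per group over all 9 libraries. Contrasts were tested with glmQLFTest and called at a Benjamini-Hochberg adjusted p under 0.05 over 17901 genes. All adjusted p are from edgeR unless DESeq2 (1.42.0), limma or a permutation test is named. SE is the absolute log2 fold change over the square root of F. CPM use TMM-scaled library sizes. Replicates differed beyond counting noise (chi-squared per degree of freedom 11.4 to 36.0). The fit was also run on simulated data with 200 changed genes and independent noise for each gene. That setting is simpler than these data, where 36.6% of genes passed in SCI vs sham, so it does not vouch for the calls here.

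The members and the 19 other lists were chosen with earlier results of these data known. Named genes are the members, the nearest profiles (mean of 5 CPM or more), and examples from the up to 4 genes per list with the smallest p in SCI vs sham. Genes of lists without such examples are given as counts or sums. Promoter sequences are RefSeq's.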

Additional observations from a re-analysis of the deposited data

How the results depend on the processing

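No fold change called in the main fits changed sign under any alternative. In SCI vs sham, 9 of the 10 genes were called, and 3 to 8 with single libraries left out. In HBO vs sham 4 were called, 0 to 8 with single libraries left out, 7 with DESeq2, and 8 without SCI replicate 1 and HBO replicate 1 together. In HBO vs SCI 0 were called under each alternative run. Relative to other neuronal genes 1 was called in SCI vs sham and 1 in HBO vs sham, and with single libraries left out, an alternative chosen after seeing the data, 0 to 3 and 0 to 1. Over all genes, DESeq2 called 22 in HBO vs SCI against 0 with edgeR; leaving out single libraries gave 0 to 4 there, 4316 to 5913 against 6545 in SCI vs sham, and 3053 to 5777 against 5530 in HBO vs sham. The cause of these moves was not tested, beside the smaller number of libraries.

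Same replicate numbers gave no sign of pairing: correlations of their deviations from the group means were -0.179 to 0.138. Libraries with different numbers had -0.203 to 0.25. With 3 libraries per group this cannot show that the libraries are unpaired. With the replicate number as a block, 8 of the 10 genes were called in SCI vs sham, 4 in HBO vs sham and 0 in HBO vs SCI. Map1b then had an adjusted p of 0.0591 in SCI vs sham, and in HBO vs sham Nefl had 0.0591 and Nefh 0.0481.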

Other observations

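Map2 and Mapt parted in 1 library. The ratio of Map2 to Mapt counts was 2.89 in HBO replicate 3, against 1.64 and 1.53 in the other HBO libraries, 1.44 to 1.86 in SCI and 1.90 to 2.20 in sham. Map1b to Mapt was also highest there, at 10.2, against 6.54 to 8.30 in the other 8 libraries. That library also held 6.55% mitochondrial counts, against 2.97% to 4.07% elsewhere, and the highest neutrophil sum.

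Genes of the oligodendrocyte lineage were also measured. For scale, 16.6% of all genes tested fell and 20% rose in SCI against sham, and 13.5% fell and 17.4% rose in HBO against sham. Of 6 oligodendrocyte precursor genes 4 rose in SCI and 4 in HBO, each against sham, with the growth factor receptor Pdgfra at 158 ± 22.7 CPM in SCI and 74.0 ± 5.95 CPM in sham. Of 10 genes of mature oligodendrocytes 3 fell and none rose in SCI against sham, with a median log2 fold change of -0.29, and the median in HBO against sham was -0.06.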
